A study of Homo sapiens with 62 samples.

Results

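The samples described here compare the inactive degrader dTAGv-1-NEG with its solvent DMSO in AsPC-1, a human pancreatic ductal adenocarcinoma line used as a model of the classical subtype. They were chosen by their labels as all NEG and DMSO samples of experiments 1 and 2 of the first batch, and they number 11 of the 62 samples of the series. NEG comprised 6 samples (4 in experiment 1 and 2 in experiment 2) and DMSO 5 samples (3 and 2), each collected 4 h after treatment. Every sample, DMSO included, came from cells that lacked endogenous KLF5 and carried an FKBP12-F36V-FLAG-KLF5 transgene, so that no unmodified AsPC-1 sample is among them. Nothing in the labels says that replicates of an experiment were separate cultures, and the p-values below measure the spread between these samples. SLAM-seq libraries were made from them: the cells are given 4-thiouridine before lysis, and newly made RNA is then recognised in its reads by T-to-C changes (T>C reads). The question was whether the compound alters transcription without the degradation of its target. The same contrast in T3M-4, a line used as a model of the basal-like subtype with the same transgene (4 NEG and 4 DMSO samples), and the dTAGv-1 samples (6) and CB-6644 samples (5) of the same AsPC-1 experiments are set beside it where a result turns on them. In T3M-4 experiment 1 belongs to the first batch and experiment 2 to the second, so that experiment and batch cannot be told apart there. Tests of the difference between the lines therefore span both batches.

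dTAGv-1 is a bifunctional molecule with a ligand for the mutant FKBP12-F36V tag at one end and a ligand for the ubiquitin ligase substrate receptor VHL at the other, and it brings the tagged protein to the ligase. In dTAGv-1-NEG a change of stereochemistry in the VHL ligand prevents binding of VHL, while the end that binds the tag is kept. It is therefore the customary control for effects of a degrader that do not come from degradation. Among the pathways that cells switch on or off within hours, immediate-early genes follow growth factor and stress signalling through ERK, and the genes of sterol and fatty acid synthesis follow the SREBP transcription factors, which are released when membrane cholesterol is low.

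T>C counts totalled 8507728 to 14142965 per sample and all counts 82676553 to 140480737, and the NEG range lay within the DMSO range for T>C counts. Average-linkage clustering of 41 of the 42 AsPC-1 profiles (1 whose T>C counts exceeded its counts of all reads for some genes was left out) was cut into 3 clusters, a number that was set and not found by the method. It placed the 11 samples in 3 profile clusters, which come from the measured profiles and which no label names: DMSO 1.1 and 1.2 with NEG 1.1 and 1.2 (cluster A), DMSO 1.3 with NEG 1.3 and 1.4 (cluster B), and experiment 2 (cluster C). DCLK1, a kinase known as a tuft cell marker, set cluster B apart and did not separate clusters A and C. It was at 38.7 T>C CPM (T>C counts scaled to a common library size) in DMSO 1.3 against 0.359 to 1.90 in the other DMSO samples. Of 15 epithelial and ductal markers 13 were above 1 CPM in all reads. Of 18 markers of other cell types only CD68 was, and the summed level of those 18 was 3.96 to 7.66 CPM in NEG and 4.26 to 14.4 CPM in DMSO. CD3E, CDH5, PRSS1, CELA3A, INS, GCG and CHGA had no read in any of the 11 samples.

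In T>C reads no single gene differed between NEG and DMSO past the adjusted threshold of 0.05 (0 of 11895 tested, 0.0%; edgeR quasi-likelihood test with experiment as a block). At an unadjusted p under 0.05 there were 548 higher genes (4.61% of those tested) and 520 lower genes (4.37%), and DESeq2 with the same block called 54 (0.454%), 15 higher (0.126%) and 39 lower (0.328%). Blocking on the 3 profile clusters gave 3 calls in edgeR (0.0252%), 2 higher (0.0168%), INSIG1 among them, and CEACAM1 lower (0.00841%). The median fold change over all tested genes was 0.00 on the log2 scale, and for 8381 genes (70.5%) the 95% interval of the change lay within a 2-fold change in either direction. The interval lay within a 1.5-fold change for 4071 genes (34.2%). Among the lists examined, those for NF-kB targets, immediate-early genes and sterol synthesis had the medians farthest from 0 (-0.43, -0.41 and 0.41), and the list for the compound's own machinery had a median of -0.01. The lists were chosen with earlier results of these data known. Their counts beside those of all genes are therefore descriptions and no independent evidence.

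**Figure D1:**
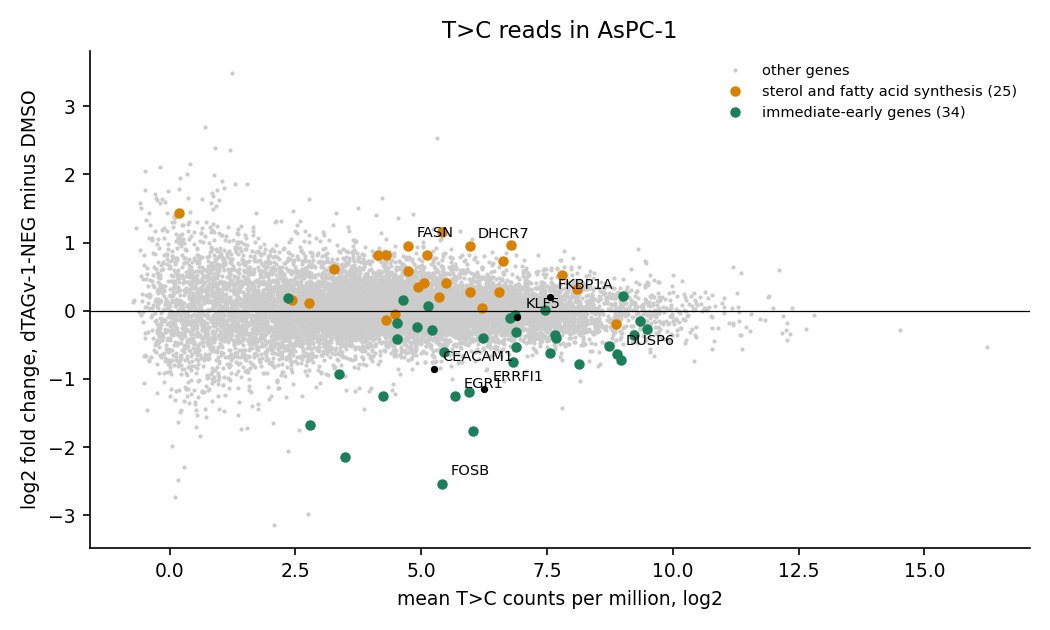
Mean T>C level (log2 CPM, horizontal axis) against the log2 fold change of NEG over DMSO (vertical axis) for each of the 11895 genes tested in AsPC-1. The sterol and fatty acid synthesis genes (orange, 25) lie mostly above 0 and the immediate-early genes (green, 34) mostly below it, with KLF5 and FKBP1A (black) near 0 and CEACAM1 and ERRFI1 (black) below it.

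KLF5, the protein whose transgene carries the tag, was read through its own annotated transcript end, which does not separate the transgene from the endogenous locus and is no check of the labels. KLF5 had 73.4, 81.1, 117, 212 and 167 T>C CPM in DMSO 1.1, 1.2, 1.3, 2.1 and 2.2, and a lowest, median and highest value of 94.9, 109 and 138 in NEG. The groups overlapped, with NEG below DMSO in experiment 2 alone, and the difference was -0.09 ± 0.17 (log2, SE; edgeR adjusted p = 0.907). FKBP1A encodes the cellular FKBP12, the protein from which the tag is derived. Its T>C CPM were 215, 160.2, 187, 182 and 124 in DMSO and 158, 198 and 255 (lowest, median, highest) in NEG, a difference of 0.20 ± 0.17 (adjusted p = 0.723, edgeR). VHL was at 102, 116, 134, 149 and 141 CPM in DMSO and at 114, 125 and 130.5 in NEG, and the difference was -0.05 ± 0.11 (adjusted p = 0.928, edgeR). The 95% intervals were -0.46 to 0.29 for KLF5, -0.16 to 0.56 for FKBP1A and -0.29 to 0.20 for VHL. DCLK1 differed by 0.13 ± 1.21 (adjusted p = 0.981, edgeR), and in all reads it was high in profile cluster B alone.

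Of 24 genes listed for FKBP proteins, VHL and its ligase, 21 were tested: 10 were above 0 and 11 below, the median was -0.01, and 2 were higher and 2 lower at an unadjusted p under 0.05, where 4.61% of all genes were higher and 4.37% lower. NEDD8, the modifier that activates cullin ligases, had the smallest p above 0 (0.84 ± 0.31, adjusted p = 0.533, edgeR), and FKBP2, an FKBP of the endoplasmic reticulum, the smallest below 0 (-0.49 ± 0.20, adjusted p = 0.548, edgeR). The hypoxia-inducible factor HIF is the textbook substrate of VHL. Among its targets 12 of 25 tested lay above 0, the median was -0.01, and 2 members were higher and 2 lower at an unadjusted p under 0.05 (4.61% and 4.37% of all genes), with DDIT4 at 0.51 and BNIP3L at -0.54. The medians of both lists lay close to that of all genes, 0.00.

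Most genes of sterol and fatty acid synthesis were higher in NEG, without passing the adjusted threshold. Of 27 listed genes 25 were tested (LSS and ACACA fell below the count filter), 22 lay above 0 in T>C reads, and 13 were higher and 0 lower at an unadjusted p under 0.05, beside 4.61% of all genes. The median of the list was 0.41 on the log2 scale. Because the list was chosen with earlier results of these data known, the excess over all genes is no independent evidence. None passed the adjusted threshold in edgeR with the block on experiment. DESeq2 with that block called DHCR7 and FASN (0.126% of all genes were called higher). The edgeR fit with a block on the profile clusters called 2 members, INSIG1 among them (0.0168% of all genes were called higher). In that fit 17 of 25 members were higher at an unadjusted p under 0.05 (5.36% of all genes), and the median was 0.62. With the block on experiment, leaving out each sample in turn gave 9 to 15 members higher, 0 lower and a median of 0.37 to 0.57.

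FASN, the fatty acid synthase (chromosome 17, 82078338 to 82098294, minus strand, GRCh38), had 11.1, 24.9, 14.3, 22.4 and 15.01 T>C CPM in DMSO 1.1, 1.2, 1.3, 2.1 and 2.2, and 28.5, 33.7 and 40.6 (lowest, median, highest) in NEG. All 6 NEG values were above all 5 DMSO values, and the difference was 0.95 ± 0.21 (log2, SE; edgeR adjusted p = 0.493, DESeq2 adjusted p = 0.0105). SCD, the stearoyl-CoA desaturase (chromosome 10, 100347233 to 100364826, plus strand), also did not overlap. Its T>C CPM were 14.7, 15.6, 13.2, 8.35 and 10.1 in DMSO and 15.7, 20.6 and 31.0 in NEG, a difference of 0.81 ± 0.19 (adjusted p = 0.493, edgeR). DHCR7 catalyses the last step of cholesterol synthesis (chromosome 11, 71428193 to 71452868, minus strand). It had 62.8, 51.3, 31.8, 33.2 and 28.1 CPM in DMSO and 58.8, 75.0 and 126 in NEG, with overlap in experiment 1 and none in experiment 2. The difference was 0.94 ± 0.23 (edgeR adjusted p = 0.493, DESeq2 adjusted p = 0.0205).

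INSIG1, the sterol-sensing protein that retains SREBP in the endoplasmic reticulum (chromosome 7, 155297776 to 155310235, plus strand), showed how the profile clusters entered these values. It had 89.8 and 99.0 T>C CPM in DMSO 1.1 and 1.2 (cluster A), 42.0 in DMSO 1.3 (cluster B), and 66.8 and 63.9 in DMSO 2.1 and 2.2 (cluster C), against 193 and 168 in NEG of cluster A, 68.8 and 74.1 in cluster B, and 96.9 and 122 in cluster C. NEG was above DMSO within every cluster, although the groups overlapped over all 11 samples. The adjusted p was 0.548 with the block on experiment (difference 0.72 ± 0.30, edgeR) and 0.035 with the block on clusters, which were made from these profiles.

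The remaining members covered both branches of the list, and those named here were picked after their values were seen. In the cholesterol branch MVD was at 1.43 ± 0.55 on the log2 scale, SQLE at 0.82 ± 0.23, MSMO1 at 0.82 ± 0.25 and NSDHL at 0.59 ± 0.23. None of these passed the adjusted threshold in edgeR. HMGCS1, an early enzyme of the mevalonate pathway, was at 0.27 ± 0.22, and the SREBP genes themselves were at 0.21 ± 0.24 (SREBF2) and -0.13 ± 0.17 (SREBF1).

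RefSeq promoters (GRCh38.p14) were matched by symbol for 20 of the 27 listed genes, and the 250 bases before the start were searched on both strands for CACNCCAC, the core of a sterol regulatory element, and for ATTGG, the inverted CCAAT box often found beside it; the motifs do not overlap each other in the examples. CACNCCAC occurred before 6 of the 20 genes (30.0%) and before 4.87% of all promoters in the table, and ATTGG before 17 of the 20 (85.0%) and before 11240 of all 35116. A listed gene counts if any of its promoters matched, which can favour the list. The comparison shares count each promoter, whether or not its gene was tested here. Shown are members from each branch, 5′ to 3′ along the gene, with either motif on either strand in capitals; they give the letters only and say nothing of binding. The windows are chr7:155297628-155297877 (plus strand), chr10:100346983-100347232 (plus strand) and chr11:71448394-71448643 (minus strand). They precede RefSeq starts, which can differ from the GENCODE gene positions given above. The DHCR7 window lies within the GENCODE span of that gene, and the INSIG1 window runs past its GENCODE start.
INSIG1: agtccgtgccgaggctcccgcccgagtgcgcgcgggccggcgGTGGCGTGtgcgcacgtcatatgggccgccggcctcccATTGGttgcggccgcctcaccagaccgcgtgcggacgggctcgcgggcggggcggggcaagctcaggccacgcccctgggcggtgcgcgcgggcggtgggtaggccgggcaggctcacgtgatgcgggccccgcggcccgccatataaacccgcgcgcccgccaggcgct
SCD: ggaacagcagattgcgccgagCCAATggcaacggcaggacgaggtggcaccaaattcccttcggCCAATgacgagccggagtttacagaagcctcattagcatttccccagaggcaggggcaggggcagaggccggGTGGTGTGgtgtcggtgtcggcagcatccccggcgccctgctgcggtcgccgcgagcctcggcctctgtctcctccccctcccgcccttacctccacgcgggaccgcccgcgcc
DHCR7: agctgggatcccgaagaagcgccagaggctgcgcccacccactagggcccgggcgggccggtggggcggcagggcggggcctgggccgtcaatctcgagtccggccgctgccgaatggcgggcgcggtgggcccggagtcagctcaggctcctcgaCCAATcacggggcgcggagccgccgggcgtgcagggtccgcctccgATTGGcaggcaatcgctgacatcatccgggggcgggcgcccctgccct

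T3M-4 shares no sample with the AsPC-1 contrast, and most of its sterol genes were higher in NEG as well. Of 25 tested, 24 lay above 0, 19 were higher and 0 lower at an unadjusted p under 0.05 (2.81% of all genes were higher at that level), and the median was 0.74, against -0.01 over all genes in that line. None passed the adjusted threshold in edgeR (0 of 13465 genes, 0.0%; DESeq2 was not run on T3M-4). INSIG1 had 33.4, 35.5, 50.5 and 52.2 T>C CPM in DMSO 1.1, 1.2, 2.1 and 2.2 of T3M-4 and 49.5, 66.0, 183 and 179 in the NEG samples of the same numbers (1.29 ± 0.21, adjusted p = 0.508, edgeR). DHCR7 had 25.4, 31.0, 113 and 78.6 CPM in DMSO and 44.7, 30.4, 300.5 and 336 in NEG (1.08 ± 0.27, adjusted p = 0.889, edgeR). INSIG1 was higher in NEG in both experiments of T3M-4, whereas DHCR7 overlapped in experiment 1. Over the list the median was 0.36 in experiment 1 of T3M-4 with 7 of 25 members higher at an unadjusted p under 0.05 (2.56% of all genes), and 1.06 in experiment 2 with 22 of 25 (3.44% of all genes). HMGCS1, at 0.27 in AsPC-1, was at 1.01 in T3M-4. The difference between the lines was itself tested and no gene passed (0 of 13880, 0.0%, with 780 at an unadjusted p under 0.05, edgeR with an interaction term). Of the 25 sterol members 3 were higher in T3M-4 at that level, beside 2.76% of all genes.

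**Figure D2:**
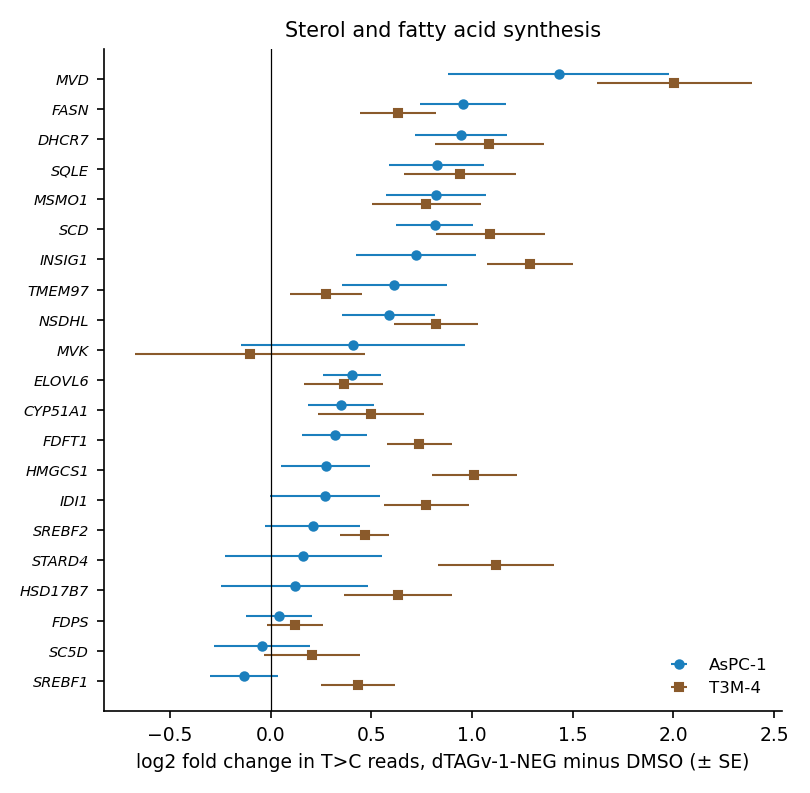
Log2 fold change of T>C reads, NEG over DMSO, with its SE, for 21 of the 25 tested genes of sterol and fatty acid synthesis in AsPC-1 (blue circles, 6 against 5 samples) and T3M-4 (brown squares, 4 against 4). Of these 21, 19 lie above 0 in AsPC-1 and 20 in T3M-4.

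In all reads, which include RNA made before the labelling, 21 of the 25 sterol genes lay above 0 in AsPC-1, with 2 higher at an unadjusted p under 0.05 (2.76% of all genes) and a median of 0.16. FASN was at 0.43 ± 0.22 and DHCR7 at 0.41 ± 0.24 in all reads (adjusted p = 0.689 for both, edgeR), smaller differences than their 0.95 and 0.94 in T>C reads. The labelled share per gene was tested as the log2 ratio of T>C reads to the gene's other reads, centred on the median gene of each sample. By this measure 21 of 25 lay above 0 with 12 higher (4.54% of all genes) and 1 lower at an unadjusted p under 0.05 and a median of 0.30. Shares printed in % are T>C reads over all reads of the gene, so the log2 differences are not changes of those percentages. SQLE, squalene epoxidase, had a share of 8.70 to 15.9% in DMSO and 15.7 to 21.2% in NEG (0.91 ± 0.16, adjusted p = 0.0855, limma).

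The active degrader, given for the same 4 h, was compared with both groups. In a fit of the 17 NEG, DMSO and dTAGv-1 samples of AsPC-1, where both contrasts share the DMSO samples, the median of the 25 genes was 0.40 for NEG minus DMSO and 0.50 for dTAGv-1 minus DMSO, and 3 members were called higher in the latter (1.19% of all genes were, and 3.98% were called in either direction). For dTAGv-1 minus NEG, the compounds that differ in the stereochemistry of the VHL ligand, 13 members lay above 0 and 12 below, the median was 0.00, and none passed the adjusted threshold (161 of 12149 genes, 1.33%, did; edgeR). The 95% interval of that difference was -0.26 to 0.53 for FASN, -0.72 to 0.12 for SCD, -0.29 to 0.55 for DHCR7 and -0.68 to 0.85 for INSIG1. With a block on the profile clusters the 17-sample fit called 10 genes for NEG minus DMSO, among them MSMO1, DHCR7 and INSIG1 higher, with CXXC5.

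Against the DMSO samples of its own profile cluster, the median sterol gene of each NEG sample was 0.53 to 0.61 higher on the log2 scale in cluster A, 0.49 to 0.61 in cluster B and 0.33 to 0.61 in cluster C. For dTAGv-1 these medians were 0.61 to 0.67, 0.32 to 0.46 and 0.35 to 0.54. CB-6644, which blocks the RUVBL1/2 ATPases and is unrelated to the degraders, gave 0.14 (1 sample), -0.23 to -0.02 and -0.09 to -0.02. Every NEG and dTAGv-1 sample lay above every DMSO and CB-6644 sample of its cluster. These values describe the samples and were not tested.

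**Figure D3:**
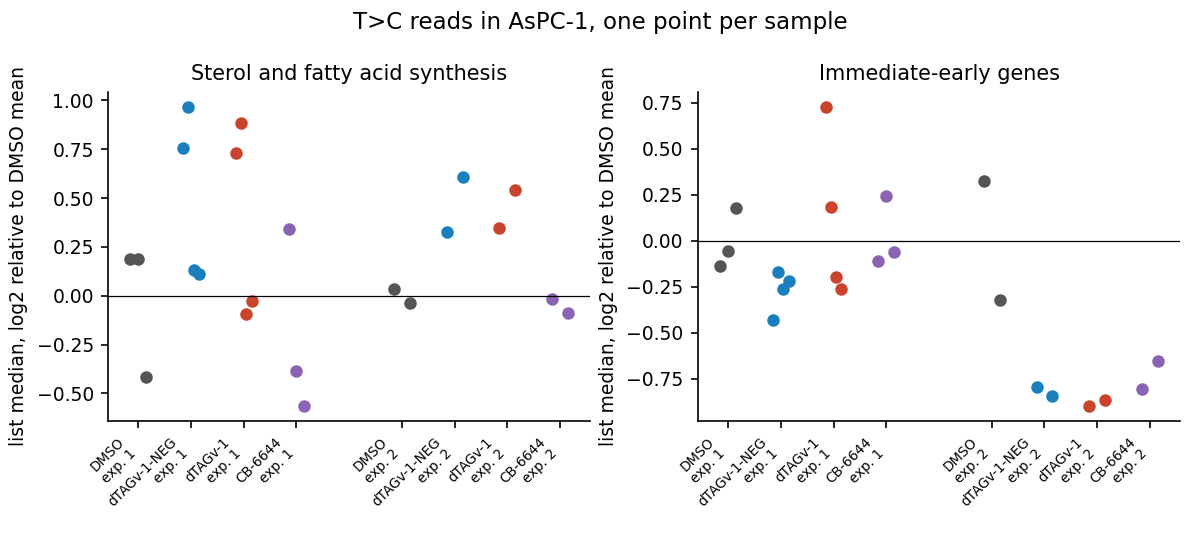
Median log2 T>C level of the sterol and fatty acid synthesis genes (left) and of the immediate-early genes (right) in each AsPC-1 sample, relative to the mean of the DMSO samples of the same experiment; each point is a sample. In experiment 2 NEG lies at 0.33 to 0.61 (sterol) and -0.84 to -0.79 (immediate-early), with dTAGv-1 beside it in both panels and CB-6644 beside it in the right panel; in experiment 1 the sterol medians of NEG (0.11 to 0.97) overlap those of DMSO (-0.42 to 0.19).

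Most immediate-early genes were lower in NEG in AsPC-1, without passing the adjusted threshold and more so in experiment 2. Of 39 listed genes 34 were tested, 29 lay below 0 in T>C reads, and 16 were lower and 0 higher at an unadjusted p under 0.05, beside 4.37% of all genes. This list, too, was chosen with earlier results of these data known. The median was -0.41 on the log2 scale in T>C reads and -0.44 in all reads, where 31 of 36 lay below 0 and 16 were lower at an unadjusted p under 0.05 (3.36% of all genes). With the block on profile clusters 20 of the 34 were lower in T>C reads (5.58% of all genes). None passed the adjusted threshold in edgeR with the block on experiment. DESeq2 with that block called DUSP6, FOSL1 and KLF10 (0.328% of all genes were called lower). The list was nearer 0 in experiment 1 (median -0.25, 3 of 34 lower at an unadjusted p under 0.05 beside 1.54% of all genes) than in experiment 2 (median -0.91, 28 of 37 lower beside 6.7% of all genes). DMSO 2.1 stood apart in several members, and without it 12 of 34 were lower and the median was -0.31; over all samples left out in turn, 11 to 18 were lower.

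DUSP6, a phosphatase that ERK induces and that acts back on ERK (chromosome 12, 89347235 to 89352501, minus strand), had the smallest p of the list. It had 559.5, 528, 531, 644 and 708 T>C CPM in DMSO and 348, 374 and 419 (lowest, median, highest) in NEG. All 6 NEG values were below all 5 DMSO values, and the difference was -0.63 ± 0.10 (edgeR adjusted p = 0.311, DESeq2 adjusted p = 7.85e-07). In all reads DUSP6 had 112, 100.1, 107, 101 and 123 CPM in DMSO and 62.2, 69.2 and 81.2 in NEG (-0.64 ± 0.10, adjusted p = 0.455, edgeR). The fit of 17 samples, in which the dTAGv-1 samples add to the estimate of the spread, gave DUSP6 an edgeR adjusted p of 0.0431, and SOWAHC was the other gene it called of 12149 (0.0165%). DUSP6 was higher in dTAGv-1 than in NEG by 0.44 ± 0.10 (95% interval 0.24 to 0.65, adjusted p = 0.0268, edgeR), at 449 to 586 CPM.

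ERRFI1, an inhibitor of EGF receptors that their signalling induces (chromosome 1, 8004404 to 8026309, minus strand), was outside the immediate-early list but among the 10 lower genes with the smallest p. It had 81.7, 65.1, 75.1, 164 and 176 T>C CPM in DMSO and 37.6, 45.01 and 52.6 in NEG, with no overlap. The difference was -1.15 ± 0.21 (edgeR adjusted p = 0.446, DESeq2 adjusted p = 0.00024), or -0.70 in experiment 1 and -1.94 in experiment 2. SPRY2, another feedback inhibitor of receptor signalling, picked after its values were seen, was at -0.60 ± 0.17 (adjusted p = 0.533, edgeR).

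EGR1, the early growth response factor, showed the part of DMSO 2.1. Its T>C CPM were 37.5, 50.6, 74.2, 168 and 49.0 in DMSO and 17.9, 23.2 and 53.6 in NEG (-1.25 ± 0.44, adjusted p = 0.533, edgeR). FOSB, an AP-1 subunit, was at 28.5, 12.2, 26.4, 345 and 10.4 CPM in DMSO and at 3.80, 8.10 and 11.1 in NEG (-2.54 ± 0.84, adjusted p = 0.533, edgeR). For FOSB, NR4A1 and EGR1 the DMSO 2.1 value was more than that of any other sample. For FOSL1 and KLF10 DMSO 2.1 was close to DMSO 1.3. FOSL1, also of AP-1, had 217, 167, 274, 292 and 215 CPM in DMSO and 125, 148 and 191 in NEG (-0.61 ± 0.16, adjusted p = 0.506, edgeR; 0.0371 in DESeq2). KLF10, an early target of TGF-beta, had 127, 131, 161, 157 and 129.9 CPM in DMSO and 74.6, 102 and 123 in NEG without overlap (-0.54 ± 0.14, adjusted p = 0.493, edgeR; 0.0298 in DESeq2). On the other side, SPRED1 had the smallest p above 0, at 0.15 ± 0.16.

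In T3M-4 the immediate-early genes lay nearer 0 over both experiments: 22 of 35 were below, 1 was lower and 0 higher at an unadjusted p under 0.05 (2.53% of all genes were lower), and the median was -0.04. The experiments of T3M-4 differed in direction, with 23 of 37 above 0, 2 higher and a median of 0.09 in experiment 1, and 30 of 35 below 0, 3 lower and a median of -0.13 in experiment 2 (2.56% of all genes were higher in the former and 3.14% lower in the latter). DUSP6 had 258, 271, 296 and 325 T>C CPM in DMSO and 316, 314, 289.5 and 249.5 in NEG there, with overlap (0.02 ± 0.12). ERRFI1 was at 0.11 ± 0.12. In the test of the difference between the lines 31 of 36 members lay above 0, that is, less low or higher in T3M-4, with 7 at an unadjusted p under 0.05 (2.76% of all genes) and none past the adjusted threshold; DUSP6 differed by 0.64 (adjusted p = 0.763, edgeR). Within AsPC-1 the active degrader and CB-6644 gave other values for this list by experiment. In experiment 2, the medians relative to DMSO were -0.90 to -0.86 for dTAGv-1 and -0.81 to -0.65 for CB-6644 beside -0.84 to -0.79 for NEG, while the 2 DMSO samples were 0.32 above and below their own mean. In experiment 1, where DMSO ranged from -0.14 to 0.18, NEG was at -0.43 to -0.17, dTAGv-1 at -0.26 to 0.73 and CB-6644 at -0.11 to 0.25. The part of DMSO 2.1 in the experiment 2 values was not tested.

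**Figure D4:**
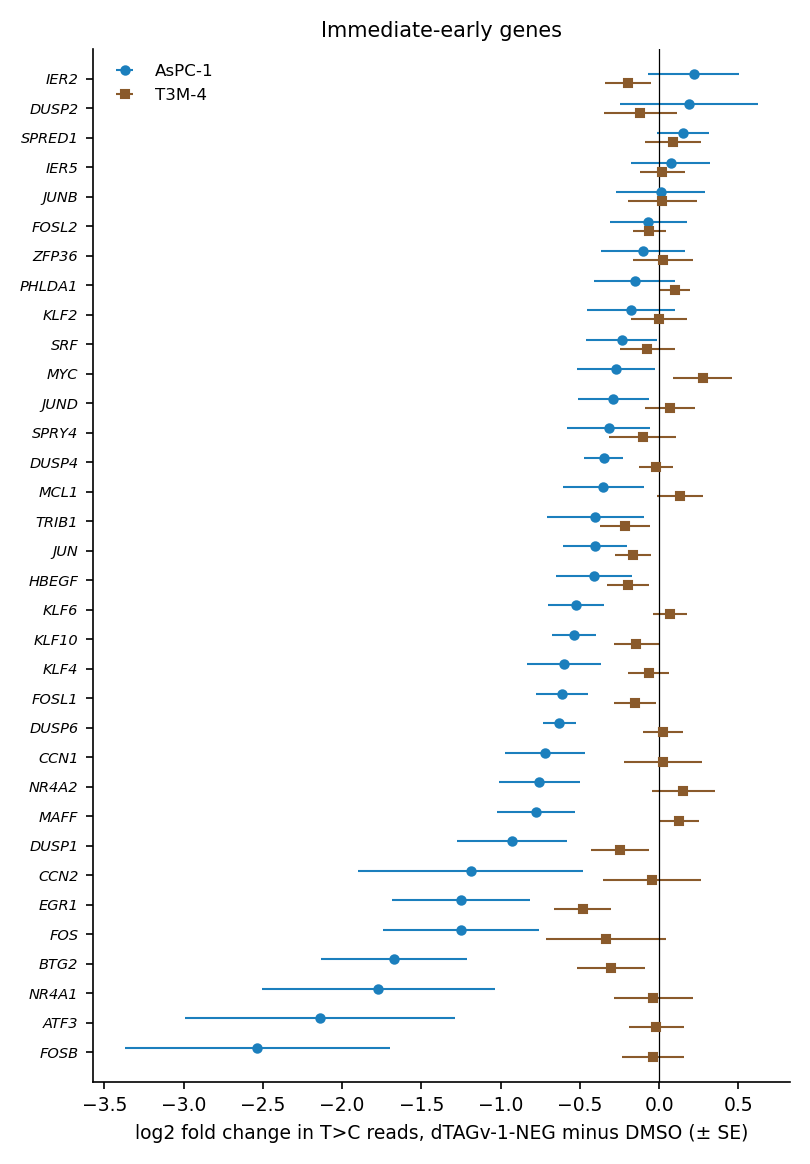
Log2 fold change of T>C reads, NEG over DMSO, with its SE, for the 34 immediate-early genes tested in AsPC-1 (blue circles, 6 against 5 samples) and T3M-4 (brown squares, 4 against 4). In AsPC-1 29 genes lie below 0, DUSP6 with the narrowest error, and the T3M-4 values gather around 0.

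The other lower genes with the smallest p were CEACAM1, SOWAHC, ETS1, PPP1R15A, LAMA3, IL1RAP and AMIGO2, with the processed pseudogene KRTCAP2P1, whose reads cannot be told from those of its parent. CEACAM1, a cell adhesion molecule of epithelia (chromosome 19, 42507304 to 42561234, minus strand), had the smallest p of all genes. It had 58.8, 59.1, 56.7, 36.7 and 36.9 T>C CPM in DMSO and 16.9, 31.0 and 38.7 in NEG, and NEG was below DMSO in each experiment. The difference was -0.86 ± 0.12 (edgeR adjusted p = 0.132, or 0.035 with the block on profile clusters; DESeq2 adjusted p = 6.09e-09). In dTAGv-1 it was at 7.27 to 12.1 CPM, 1.60 ± 0.14 below NEG on the log2 scale (adjusted p = 1.17e-05, edgeR), and in CB-6644 at 18.0 to 33.7 CPM. SOWAHC, an ankyrin repeat gene of little known function, was at 55.3 to 78.5 CPM in DMSO and 33.2 to 49.7 in NEG (-0.77 ± 0.14). ETS1, a transcription factor activated by ERK, was at 143 to 224 and 85.7 to 124 CPM (-0.67 ± 0.14). PPP1R15A, the stress-induced phosphatase subunit that restores translation, was at 58.9 to 165 and 52.3 to 56.5 CPM (-0.86 ± 0.18). IL1RAP, the shared subunit of interleukin-1 receptors, was at 23.0 to 37.9 and 7.02 to 22.7 CPM (-1.17 ± 0.25). LAMA3, a laminin chain of the epithelial basement membrane, was at -0.81 ± 0.17 and AMIGO2 at -0.68 ± 0.15. None of these passed the adjusted threshold in edgeR with the block on experiment.

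Beside FASN, SCD and DHCR7, the 10 higher genes with the smallest p included CAMKK2, CRTAP, POLR2I, TEDC2, FBXL19 and PPP1R16A, each with an edgeR adjusted p of 0.493. CAMKK2, a kinase upstream of AMPK, had 75.4, 128, 100.5, 86.0 and 89.5 T>C CPM in DMSO and 135, 153 and 199 in NEG, without overlap (0.74 ± 0.16). CRTAP, which acts in collagen hydroxylation, had 15.9, 24.4, 17.4, 22.4 and 16.8 CPM in DMSO and 27.6, 32.7 and 40.5 in NEG, again without overlap (0.79 ± 0.17). The RNA polymerase II subunit POLR2I was at 0.82 ± 0.18, PPP1R16A at 0.61 ± 0.15, TEDC2 at 1.397 ± 0.32 and FBXL19 at 1.91 ± 0.44. In T3M-4 the values were -0.06 for CAMKK2, 0.05 for CRTAP and -0.27 for POLR2I, whereas PPP1R16A was at 0.76. Counts of FASN, TEDC2, FBXL19 and PPP1R16A were all multiples of 2, as counts of 920 of 11620 genes were multiples of a whole number above 1. The tests took them as deposited.

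NF-kB targets had a median of -0.43, with 15 of 19 tested genes below 0 and 3 lower at an unadjusted p under 0.05 (4.37% of all genes). CCL20, a chemokine, was at 3.102 to 11.2 T>C CPM in DMSO and 1.65 to 3.85 in NEG (-1.14 ± 0.40, adjusted p = 0.533, edgeR), and NFKB1 had the smallest p above 0 at 0.05 ± 0.12. The median was -0.04 in T3M-4. Leaving out each sample in turn gave 1 to 5 lower members and a median of -0.61 to -0.22.

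The KLF5 target genes bear on whether the inactive compound mimics the degrader. The study chose the 69 genes from its comparison of dTAGv-1 with NEG in AsPC-1, which may include these samples, so that they are no independent evidence of direction. It kept only genes that were lower in each replicate it analysed and had a KLF5 ChIP-seq peak at or beside them. For NEG minus DMSO 52 lay below 0, 12 were lower and 1 higher at an unadjusted p under 0.05 (4.37% and 4.61% of all genes), and the median was -0.15. For dTAGv-1 minus NEG the median was -1.02 and 52 passed the adjusted threshold, a count that the choice of the list fixes (1.19% of all genes were called lower). LAMB3, a laminin chain, was the lower member with the smallest p, at 97.3, 56.5, 154, 238 and 172 T>C CPM in DMSO and 48.4, 64.7 and 85.2 in NEG (-1.03 ± 0.24, edgeR adjusted p = 0.493, DESeq2 adjusted p = 0.0121). NRP2, a semaphorin co-receptor, was the higher member with the smallest p (0.31 ± 0.13, adjusted p = 0.549, edgeR). In labelled share 55 of the 69 lay below 0 and 25 were lower at an unadjusted p under 0.05 (5.8% of all genes). In all reads the median was -0.03 and in T3M-4 -0.02.

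The medians of the remaining lists lay between -0.17 and 0.15, apart from the 1 gene tested of other cell types. Among basal-like genes of the study 48 were tested with a median of -0.14 and 9 lower and 2 higher at an unadjusted p under 0.05 (4.37% and 4.61% of all genes), AMIGO2 lower and DDIT4 higher having the smallest p. Among its classical genes 33 were tested with a median of -0.17 and 1 in each direction at that level, GCNT3 (-0.33) and TST (0.69). The integrated stress and unfolded protein response had a median of 0.01 over 28 genes, with the serine hydroxymethyltransferase SHMT2 at 0.79 beside PPP1R15A at -0.86. Heat shock genes had a median of 0.08 over 21, STIP1 being at 0.56 and HSPH1 at -0.26. NRF2 and metal response genes had a median of 0.06 over 24, with MT2A, a metallothionein, at 0.85 and TXNRD1 at -0.45. Xenobiotic response genes had a median of -0.06 over 11, AHR, the dioxin receptor, being at -0.75 and NQO1 at 0.08. For p53 targets the median was 0.00 over 19, with FAS at 0.77 and TNFRSF10B at -0.24. TGF-beta and BMP early targets had a median of -0.11 over 22, with KLF10 lower and ACVR1 at 0.19. Glucocorticoid targets had a median of -0.11 over 8, TSC22D3 being at 0.54 and ERRFI1 at -1.15, and interferon response genes one of -0.09 over 15, with DDX60 at -0.72 and OAS3 at 0.53. Mitotic genes had a median of 0.00 over 28, with KIF23 at -0.52 and TPX2 at 0.54, and epithelial and ductal markers 0.15 over 13, with ELF3 at 0.41 and GATA6 at -0.33. CD68 was the 1 marker of other cell types tested, at 0.37.

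In all reads 0 of 14009 genes passed the adjusted threshold in edgeR (0.0%; 858 at an unadjusted p under 0.05), and DESeq2 called 9 (0.0642%), 8 lower (0.0571%) and 1 higher (0.00714%). DUSP6, ERRFI1, SOWAHC, GADD45A and the mitochondrial methionine tRNA MT-TM had the smallest p below 0. GADD45A, a stress-induced gene of growth arrest, had 23.7, 22.3, 30.8, 34.6 and 37.4 CPM in DMSO and 16.6, 20.2 and 21.7 in NEG, without overlap (-0.57 ± 0.12, edgeR adjusted p = 0.689, DESeq2 adjusted p = 0.0135). ERRFI1 had 13.9, 12.0, 13.8, 26.2 and 29.3 CPM in DMSO and 6.63, 8.75 and 9.86 in NEG (-1.03 ± 0.17, edgeR adjusted p = 0.588). MEIS1, a homeobox gene, had the smallest p above 0 at 0.49 ± 0.11, followed by EFNA4 at 0.58, SKIDA1 at 1.45, TMEM191C at 1.59 and GATAD2B at 1.198, all with an edgeR adjusted p of 0.689.

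The labelled share per gene gave 0 calls of 11895 (0.0%, limma; 1230 at an unadjusted p under 0.05), with 4 lower genes and 1 higher gene at adjusted p values near the threshold. The share of AMIGO2 was 24.9 to 30.0% in DMSO and 21.1 to 23.0% in NEG (-0.44 ± 0.07, adjusted p = 0.0508, limma). TM4SF1, a tetraspanin-like surface protein, had a share of 10.5 to 13.9% in DMSO and 7.17 to 8.02% in NEG (-0.66 ± 0.10, adjusted p = 0.0508, limma). For CFLAR, the caspase-8 inhibitor, it was 19.7 to 21.9% and 14.4 to 17.1%, and for ACTG1, cytoplasmic actin, 9.15 to 10.3% and 6.70 to 7.75%. The groups did not overlap for these 4 genes or for MAP2K3, at 16.4 to 20.3% and 9.69 to 14.7%, but all were named for a small p in this same measure. CXXC5, a zinc finger protein, went the other way, at 16.9 to 26.0% in DMSO and 24.2 to 28.7% in NEG (0.49 ± 0.07, adjusted p = 0.0508, limma). FAS was at 1.04 ± 0.17 in labelled share, SUOX at 0.90 ± 0.16 and IDH1 at 0.74 ± 0.14.

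Over whole libraries, T>C reads made up 10.3, 10.6 and 10.6% of all reads in DMSO 1.1, 1.2 and 1.3 and 9.36 and 9.42% in DMSO 2.1 and 2.2. In NEG they made up 9.45, 9.88, 9.76 and 9.68% in experiment 1 and 8.87 and 9.23% in experiment 2. Every NEG sample was below every DMSO sample of its experiment, with means of 9.48% ± 0.38 (SD, n = 6) and 10.1% ± 0.62 (SD, n = 5) and an exact two-sided permutation p of 0.00952 within experiments, the smallest that these 210 arrangements give (0.0159 adjusted over 5 comparisons). The dTAGv-1 samples were lower still, at 8.04% ± 0.38 (SD, n = 6), 1.44 percentage points below NEG (exact permutation p = 0.00476, 0.0159 adjusted). The lower share in NEG held for the sum of reads and not for the median gene: the median share over the tested genes was 16.7 to 17.7% in DMSO and 15.8 to 16.2% in NEG in experiment 1, but 14.2 to 14.6% in DMSO and 15.03 to 15.4% in NEG in experiment 2 (exact permutation p = 0.4). In T3M-4 NEG was at 13.0 and 13.3% against 14.1 and 13.4% in experiment 1, and at 12.2% in both samples against 11.1% in both in experiment 2 (exact permutation p = 0.556, 0.556 adjusted). The difference between the lines had an exact permutation p of 0.0558 (0.0698 adjusted). Labelling and the amount of new RNA cannot be told apart in a share of reads.

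**Figure D5:**
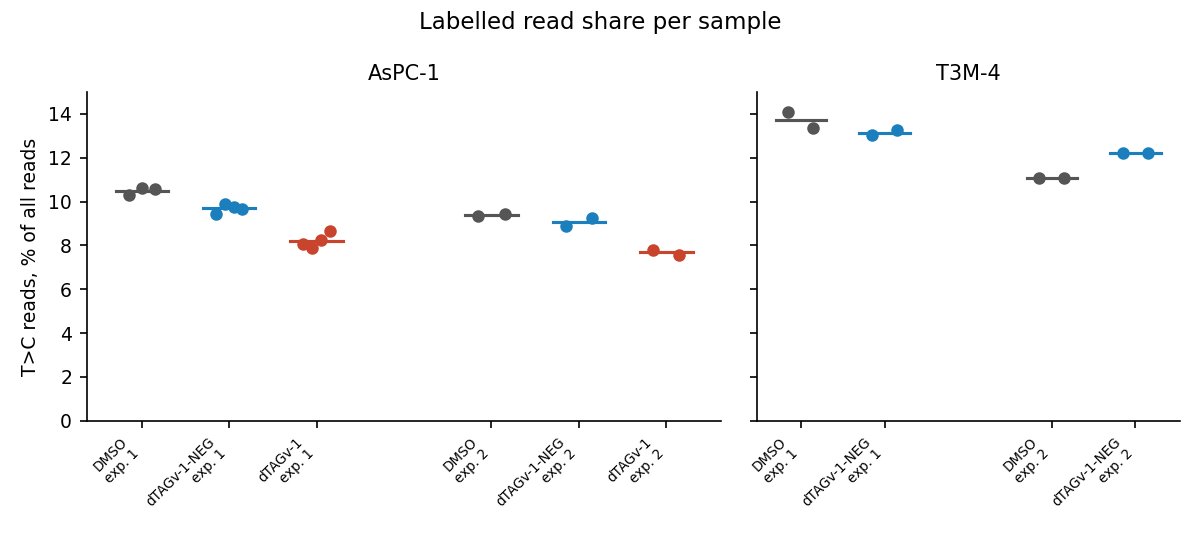
Percentage of reads with T>C changes in each sample (points) with the group mean (line), by experiment, for DMSO (grey), dTAGv-1-NEG (blue) and dTAGv-1 (red) in AsPC-1 and for DMSO and dTAGv-1-NEG in T3M-4. NEG lies below DMSO in both AsPC-1 experiments and dTAGv-1 below NEG; in T3M-4 NEG lies below DMSO in experiment 1 and above it in experiment 2.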

How the data were processed

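The authors aligned SLAM-seq reads to hg38 with slamdunk and counted them over annotated transcript ends (GENCODE v44), summed per gene; the deposited values are raw counts of T>C reads and of all reads. Nearby genes, pseudogenes and overlapping records can share such reads. Neither unlabelled cells nor spike-in RNA entered the comparison, and background T>C reads and RNA per cell were not measured. Genes were filtered with edgeR 4.0.16 (filterByExpr), scaled by TMM and tested by its quasi-likelihood test with experiment as a block, p-values being adjusted over all genes; DESeq2 1.42.0 and other settings were alternatives. The labelled share per gene was tested with limma 3.58.1 on log2 ratios of T>C reads to the other reads of the gene (pseudocount 0.5), and library shares by exact permutation within experiments. Scripts were tested on simulated data. Same-numbered NEG and DMSO samples deviated together from their group means in T>C reads (r = 0.31 to 0.49 in each of 5 pairs). Each DMSO sample had its highest r with the NEG sample of its own number. Some pairs of different numbers in the same experiment were close to this (DMSO 1.3 with NEG 1.4, r = 0.46, and DMSO 2.1 with NEG 2.2, r = 0.33). NEG 2.2 had a higher r with DMSO 2.1 than with DMSO 2.2, so that the number alone is not shown to pair them. The main tests did not pair samples by number, and a block on the whole number, without NEG 1.4, was an alternative. With it 16 of 25 sterol genes were higher at an unadjusted p under 0.05 (5.84% of all genes), with a median of 0.59. Of the immediate-early genes 23 of 34 were lower at that level (4.95% of all genes), with a median of -0.49. Profile clusters (average linkage on the 500 most variable genes in all reads) served as an alternative block. Gene lists, and the comparison itself, were chosen with earlier results of these data known. Named genes were KLF5, FKBP1A, VHL, DCLK1, the 10 genes of smallest p on each side in T>C reads with the same sign in both experiments, 5 on each side in all reads and in labelled share, and on each side of each list the member of smallest p. Where groups of a gene named for its small p did not overlap, the choice of the gene favours this. No count of such genes over all genes tested is given here. Gene positions are from GENCODE v44; 29773 of 29794 genes matched. Some genes that this rule or a list holds are not reported here by name.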

Additional observations from a re-analysis of the deposited data

Results flagged for a closer look

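Of 154 groups of values checked for a sample far from the rest (76 genes and the library share, NEG and DMSO), 7 held one by Dixon's criterion, where chance gives about 1 in 20. In DMSO the sample was 2.1 for FOSB (345 T>C CPM), NR4A1 (404), EGR1 (168) and DUSP1 (33.4), all immediate-early genes, and 1.3 for DCLK1 (38.7). In NEG the sample was 1.2 for DHCR7 (126) and NQO1 (502), each the highest value of its group.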

How the results depend on the processing

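The alternatives changed counts of calls more than directions. In T>C reads, 0 genes were called by edgeR with RLE scaling, no filter, no block, scaling by all reads, the replicate block on the whole number (1276 at an unadjusted p under 0.05) or without any 1 sample, but 54 by DESeq2, 2 in experiment 2 alone (which is profile cluster C) and 1 with counts summed per experiment. The replicate block on profile clusters gave 3, DESeq2 with it 142, and that block without each sample in turn 0 to 102 (102 without DMSO 1.2, 21 without NEG 1.1). In all reads DESeq2 called 9, and 49 with the block on profile clusters. For labelled share the count was 13 without centring, 8 with the block on clusters, 9 with at least 20 T>C reads and 0 to 25 without each sample (25 without DMSO 1.2). In the 17-sample fit, no block and the block on clusters gave 0 and 10 (NEG minus DMSO), 264 and 884 (dTAGv-1 minus DMSO) and 94 and 407 (dTAGv-1 minus NEG). Intervals within a 1.5-fold change numbered 4071. The library share difference was -0.575 points with no replicate block (permutation p = 0.0866), -0.807 in experiment 1 (exact p = 0.0571), -0.334 in experiment 2 (exact p = 0.333), -0.229 for the median gene (exact p = 0.4), and -0.750 to -0.427 without each sample. Over 76 named genes and 2660 alternatives 44 reversed, in 13 genes with small differences or few samples; the cause was not tested. In experiment 1 alone KLF5 was at 0.18 and VHL at 0.046. In experiment 2 DCLK1 was at -0.21, NQO1 at -0.011, NFKB1 at -0.12 and HMGCS1 at -0.077. In profile cluster A, KLF5 was at 0.31, FKBP1A at -0.24, VHL at 0.078, SPRED1 at -0.089, TNFRSF10B at 0.049, OAS3 at -0.033, TPX2 at -0.046, GATA6 at 0.12 and NR4A1 at 0.43. NFKB1 was at -0.020 with summed counts. DCLK1 was at -0.26 with the whole-number block, -0.17 with the block on clusters and -0.15 in DESeq2 with it. Without each sample in turn, under either block, values ran from -0.21 to 0.022 (KLF5), -0.58 to 2.42 (DCLK1), -0.042 to 0.26 (NQO1) and -0.054 to 0.14 (NFKB1). Single clusters, DESeq2 and omissions with the block on clusters, that block in the 17-sample fit, and the median gene were chosen after seeing the data. Depth limits low genes: the median half-width of the 95% interval was 0.49 log2 units.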
